A study of Homo sapiens with 8 samples.

Results

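RNA levels of 10 genes for amino acid transporters, SLC7A11, SLC7A5, SLC3A2, SLC7A1, SLC7A3, SLC1A4, SLC1A5, SLC38A1, SLC38A2 and SLC6A9, were examined in control and eKD2 cells of the Ewing sarcoma lines RD-ES and SK-N-MC. The genes were picked out by symbol, taking the entry with the highest mean where a symbol had several. The list was drawn up with earlier results of these data known, so the shares of its members given below are not those of a list chosen blind to the data. All 10 were found among the 60332 genes of the expression table, and all 10 were among the 15175 genes tested, whose FPKM (fragments per kilobase of transcript, scaled to library size) averaged 1 or more over the 8 libraries. Each of the 4 groups had 2 libraries, and in the text the libraries are named by group and replicate number.

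Amino acids that carry charge or are polar do not cross a lipid membrane unaided, and cells take them up through solute carriers with overlapping substrates. SLC7A11 (xCT) and SLC7A5 (LAT1) are light chains that reach the cell surface joined by a disulfide bond to the shared heavy chain SLC3A2 (4F2hc, CD98). The SLC7A11 complex exchanges extracellular cystine for intracellular glutamate and so feeds glutathione synthesis, and the SLC7A5 complex imports large neutral and essential amino acids such as leucine in exchange for others such as glutamine. SLC7A1 and SLC7A3 carry arginine, lysine and ornithine. SLC1A4 and SLC1A5 exchange small neutral amino acids, with glutamine a main substrate of SLC1A5. SLC38A1 and SLC38A2 take up glutamine, alanine and other small neutral amino acids with sodium, and SLC6A9 (GlyT1) takes up glycine with sodium and chloride. Transcription of many of these genes is known to rise through ATF4, the transcription factor of the amino acid and integrated stress responses, and that of SLC7A11 also through NFE2L2 (NRF2), the regulator of antioxidant genes.

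Both lines carry an EWSR1 fusion with an ETS gene, the defining lesion of Ewing sarcoma. Control cells had, by the sample labels, received empty lentivirus for dCas9-KRAB, a catalytically dead Cas9 joined to a repressor domain. Their titles read only cas9, and the paper calls the cells it compared with eKD cells parental. In eKD2 cells, dCas9-KRAB was directed to a GGAA repeat that acts as an enhancer of LOXHD1. Whether control and eKD2 cells differed in construct beyond the guide could not be checked. In all 4 groups the virus was used at a multiplicity of infection of 10, selection with puromycin at 1 µg/ml lasted 3 days, and cells were used within 5 passages of it, so that each group was a selected pool and not a clone. The medium of all groups was RPMI-1640 with serum and added L-glutamine. With 1 targeting construct, effects of the guide elsewhere in the genome and effects of the silenced enhancer cannot be told apart.

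LOXHD1, the gene of the targeted enhancer, fell in both lines. In RD-ES its level was 21.4 and 21.2 FPKM in the control and 1.04 and 1.02 FPKM in the eKD2 libraries, a difference of -3.46 in log2(FPKM + 1) (limma, Benjamini-Hochberg adjusted p = 1.1e-04). In SK-N-MC it went from 159 and 169 FPKM to 11.0 and 11.95 FPKM (-3.73, adjusted p = 3.7e-05). Depth estimated from the steps of the lowest values ran from 7.48 M reads in RD-ES eKD2 replicate 1 to 30 M in SK-N-MC control replicate 1, and the thinnest value among the 10 transporters, SLC6A9 in RD-ES control replicate 1, then rested on about 70.1 reads per kilobase. Of 8 Ewing sarcoma markers, all passed the filter on low values, and their summed level was 926 to 1472 FPKM per library. NR0B1, a target gene of the fusion, was at only 2.38 to 3.84 FPKM in RD-ES. The 6 markers of leukocytes, epithelium and stroma found in the table summed to 5.78 to 6.75 FPKM in RD-ES and to 199 to 229 FPKM in SK-N-MC, where decorin (DCN, 134 to 159 FPKM), lumican (LUM, 37.9 to 43.8 FPKM), PTPRC (19.2 to 22.6 FPKM) and EPCAM (2.96 to 4.54 FPKM) were above 1 FPKM in every library and CD3E and KRT5 were at 0. That sum differs between the lines, and its part in the differences between lines given below was not tested.

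Promoter sequences were at hand for 8 of the 10 genes, in 14 promoters from 250 bases before to 50 bases after a transcript start (RefSeq, GRCh38.p14). SLC7A11 and SLC7A3 were not among them. The letters TGATGNAA, the core of the C/EBP-ATF response element through which ATF4 acts at amino acid response genes, were searched on both strands. They stood in 5 of the 14 promoters, 1 each of SLC3A2, SLC7A1, SLC1A4, SLC1A5 and SLC38A1, against 3.62% of all 35116 promoters. The windows with these matches are shown because SLC3A2, SLC7A1, SLC1A4 and SLC38A1 are among the genes whose eKD2 libraries lay above the control libraries in RD-ES, while SLC1A5 is not. SLC38A2 and SLC6A9, whose eKD2 libraries also lay above the controls there, had no match in their promoters. SLC7A5, whose libraries overlapped there, had none either. Whether a match goes with a higher level in eKD2 cells was not tested. Each window is 30 bases, printed 5′ to 3′ on the strand of the gene, with the match in capitals.
SLC3A2: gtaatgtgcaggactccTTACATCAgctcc
SLC7A1: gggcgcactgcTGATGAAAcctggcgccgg
SLC1A4: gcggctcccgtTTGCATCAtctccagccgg
SLC1A5: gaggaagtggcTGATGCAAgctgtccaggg
SLC38A1: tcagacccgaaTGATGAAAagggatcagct
The SLC3A2 window is chr11:62881719-62881748 on the plus strand, and its match, which reads on the opposite strand, begins at base 38 counted from the transcript start. In SLC7A1 (chr13:29595663-29595692, minus strand) the match begins at base 8. The SLC1A4 match, also on the opposite strand, begins at base -7 (chr2:64989381-64989410, plus strand). Those of SLC1A5 (chr19:46784893-46784922, minus strand) and SLC38A1 (chr12:46266502-46266531, minus strand) begin at bases -97 and -4. None of the 5 matches overlapped a match of the other letters searched, CACGTG (an E-box, the site of MYC and MAX) and TGACNNNGC (the core of the antioxidant response element). CACGTG stood in 2 of the 14 promoters, of SLC7A5 and SLC1A5, and in 7.26% of all promoters. TGACNNNGC stood in 4 of the 14, of SLC7A5, SLC3A2, SLC7A1 and SLC1A5, and in 13.3% of all promoters. The share among the 14 was thus above that of all promoters for each of the letters searched, and no test was run on these shares. A match of letters is a description of the sequence and not evidence that a factor binds there.

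In control cells of both lines the heavy chain SLC3A2 and the glutamine and alanine carrier SLC38A2 were the most abundant of the 10 by FPKM, a scale that corrects for transcript length. In RD-ES controls SLC38A2 was at 191 and 171 FPKM and SLC3A2 at 163 and 177 FPKM, and their libraries overlapped. SLC1A5 (86.4 ± 10.6 FPKM, mean ± SD over 2 libraries, as for all such values here), SLC38A1 (73.1 ± 0.347), SLC7A5 (45.4 ± 4.58) and SLC7A1 (20.6 ± 1.65) followed without overlap between neighbours. SLC7A11, SLC1A4 and SLC7A3 were close together at means of 11.1, 10.7 and 9.60 FPKM, and SLC6A9 was lowest at 6.40 ± 1.40 FPKM. In SK-N-MC controls the order was SLC3A2 (435 ± 24.5 FPKM), SLC38A2 (287 ± 2.56), SLC1A5 (247 ± 14.7), then SLC7A5 and SLC38A1 at 79.1 and 76.3 FPKM with overlapping libraries. SLC7A11 (68.3 ± 0.0532 FPKM) and SLC7A1 (59.5 ± 0.199) came next, SLC1A4 and SLC6A9 overlapped at 35.3 and 33.9 FPKM, and SLC7A3 was lowest at 14.2 ± 0.232 FPKM. Among all genes tested, the mean level over the 8 libraries placed SLC3A2 above 97.8% of genes and SLC7A3 above 50.1%.

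**Figure D1:**
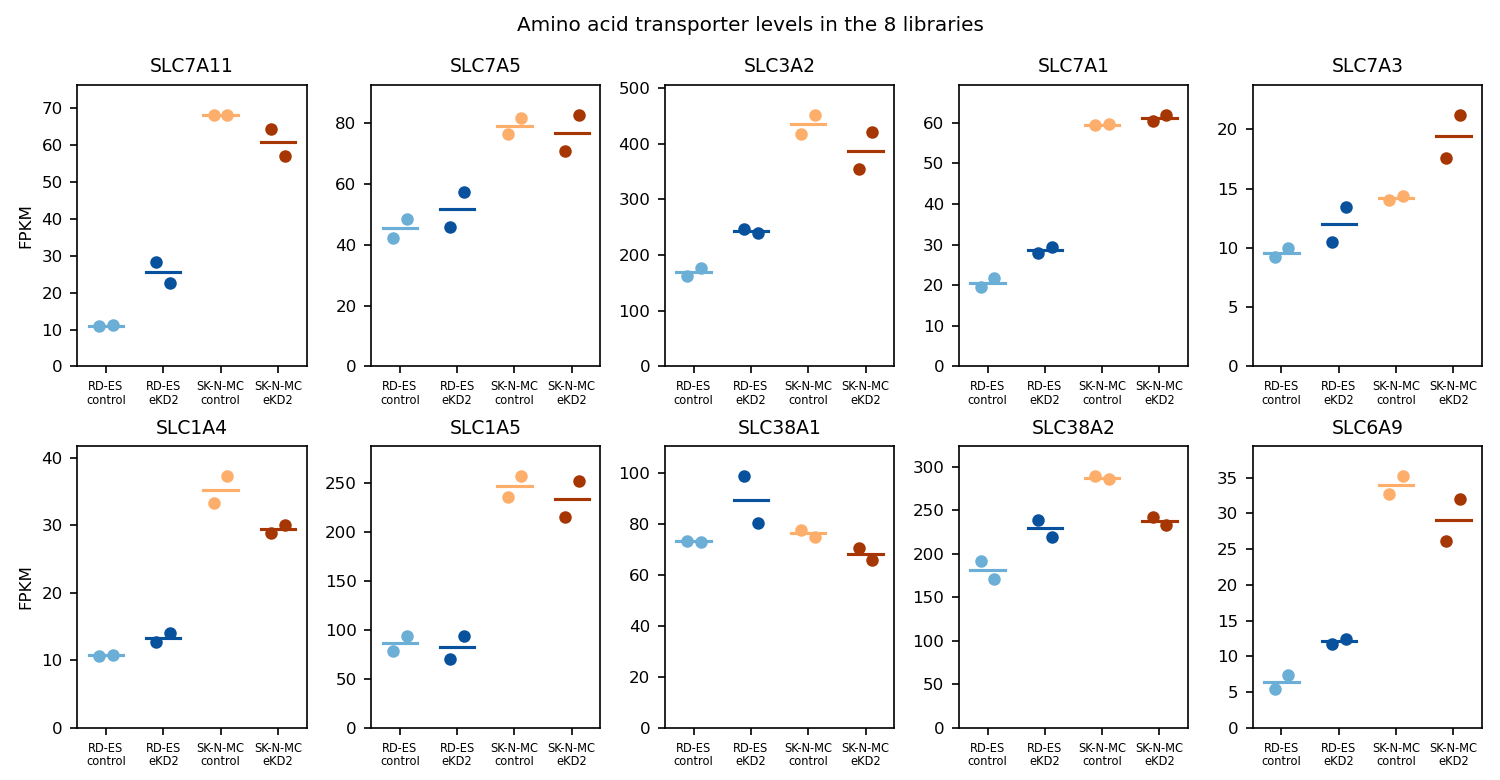
Levels of the 10 amino acid transporter genes in FPKM (vertical axes from 0, 1 panel a gene); points are the 2 libraries of each group and bars their mean. In RD-ES, SLC7A11 control points lie at 10.9 and 11.2 FPKM and eKD2 points at 28.5 and 22.6 FPKM, while all SK-N-MC libraries were between 57.1 and 68.3 FPKM.

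The comparison of eKD2 with control cells asks how transporter RNA differed once LOXHD1 and its enhancer were silenced. In RD-ES, SLC7A11 rose 2.31-fold in mean FPKM, and it was the 1 transporter of the 10 that passed an adjusted p of 0.05, against 0.264% of all genes tested that rose by that rule. At an unadjusted p under 0.05, 7 of the 10 were higher in eKD2 cells (SLC7A11, SLC3A2, SLC7A1, SLC1A4, SLC38A1, SLC38A2 and SLC6A9) and 0 were lower, against 8.49% of all genes higher and 3.79% lower. Under the alternative settings, 5 to 7 were higher. For 8 of the 10, both eKD2 libraries lay above both control libraries, against 24.2% of all genes, and for SLC7A5 and SLC1A5 the libraries overlapped. The median log2 difference of the 10 was 0.31, against 0.03 over all genes tested, and the 10 together summed to 605 and 625 FPKM in controls and to 792 and 784 FPKM in eKD2 cells. A bulk measurement cannot tell a change in the number of cells with the RNA from a change in RNA per cell.

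In SK-N-MC, 8 of the 10 had a lower mean in eKD2 than in control cells, with ratios of means from 0.827 (SLC38A2) to 0.972 (SLC7A5), and SLC7A1 (1.03) and SLC7A3 (1.36) had a higher one. None of the 10 passed an adjusted p of 0.05 by limma, against 0.323% of all genes tested that passed in either direction. At an unadjusted p under 0.05, SLC7A3 was higher and SLC1A4 and SLC38A2 were lower in eKD2 cells, 1 and 2 of 10, against 5.71% and 7.29% of all genes. Both eKD2 libraries lay above both controls for SLC7A1 and SLC7A3 (22.2% of all genes) and below them for SLC7A11, SLC1A4, SLC38A1, SLC38A2 and SLC6A9 (25.1% of all genes). The median log2 difference was -0.16, against -0.0049 over all genes, and the summed level was 1304 and 1366 FPKM in controls and 1152 and 1257 FPKM in eKD2 cells. Without SK-N-MC eKD2 replicate 1 the median was -0.064, and 6 of the 10 rather than 8 were lower by sign. At an unadjusted p under 0.05, leaving out 1 library gave 0 or 1 higher and 1 to 3 lower. With 2 libraries against 2, an exact permutation test of a single gene cannot give a two-sided p below 0.333, so all p-values here come from limma, which shares information on the spread across genes and groups. The labels name the libraries as separate samples, and the paper calls them biological duplicates without saying how they were cultured. The p-values measure the spread between them.

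**Figure D2:**
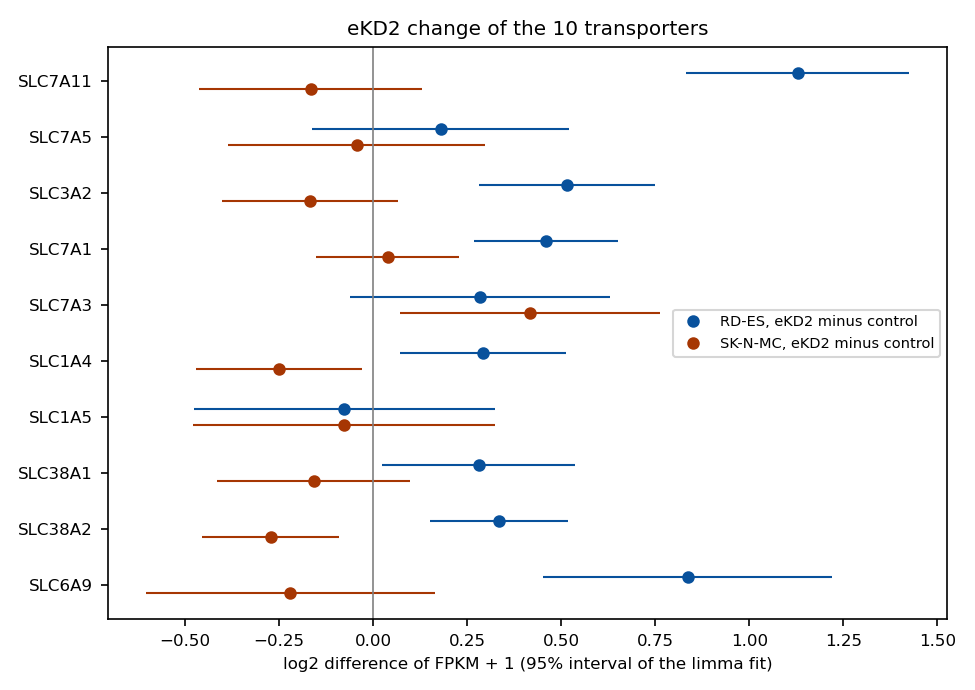
Difference in log2(FPKM + 1) between eKD2 and control libraries for each transporter (horizontal axis), with the 95% interval of the limma fit as a line, in RD-ES (blue) and SK-N-MC (brown). The SLC7A11 interval in RD-ES runs from 0.83 to 1.43 and that in SK-N-MC from -0.46 to 0.13.

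The cystine and glutamate exchanger SLC7A11 (chromosome 4, 139085251 to 139163503, minus strand, GRCh37) had 10.9 and 11.2 FPKM in RD-ES controls, and 28.5 and 22.6 FPKM once eKD2 was present. Both eKD2 libraries were above both controls, and they differed from each other more than the controls did. The log2 difference was 1.13 ± 0.12 (SE, adjusted p = 0.030). In SK-N-MC the gene was at 68.2 and 68.3 FPKM in controls and at 64.5 and 57.1 FPKM in eKD2 libraries, all eKD2 values below the controls, with a log2 difference of -0.17 ± 0.12 (adjusted p = 0.63; -0.25 to -0.08 with 1 library left out). The eKD2 level in RD-ES thus stayed below every SK-N-MC library. The RD-ES call did not hold in most settings. The adjusted p was 0.22 with a replicate block and 0.49 with RD-ES fitted alone. It was 0.050 to 0.055, and not under 0.05, with no filter, median scaling, quantile normalization or no trend. Among the processing settings only a pseudocount of 0.1 FPKM kept the call (adjusted p = 0.022). Without RD-ES eKD2 replicate 1 the log2 difference was 0.97. The direction was the same in every setting, with log2 differences from 0.97 to 1.29. An antisense gene, SLC7A11-AS1, covers 8.97% of the exonic bases of SLC7A11 and was at a mean of 0.019 FPKM. Without strand information, reads of both cannot be told apart there, and the same holds for the overlaps given below. The expression table gave SLC7A11 a wider interval, 138948575 to 139163503, so its entry may hold more than the gene model cited here.

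SLC3A2, the heavy chain that carries SLC7A11 and SLC7A5 to the surface (chromosome 11, 62623476 to 62656352, plus strand), was at 163 and 177 FPKM in RD-ES controls and at 247 and 240 FPKM in eKD2 libraries. The groups did not overlap, the ratio of means was 1.43, and the log2 difference of 0.51 ± 0.096 did not pass the adjusted test (unadjusted p = 0.0017, adjusted p = 0.16). In SK-N-MC it was at 417 and 452 FPKM in controls and at 355 and 420 FPKM in eKD2 libraries, which overlapped (-0.17, adjusted p = 0.52; -0.29 to -0.05 with 1 library left out). SLC7A5, the leucine importer (chromosome 16, 87863629 to 87903113, minus strand), overlapped between groups in both lines. It was at 42.2 and 48.7 FPKM in RD-ES controls against 46.0 and 57.6 FPKM in eKD2 cells (0.18, 95% interval -0.16 to 0.52), and at 76.4 and 81.8 FPKM in SK-N-MC controls against 70.9 and 82.9 FPKM in eKD2 cells (-0.04, interval -0.39 to 0.30). A lncRNA gene on the other strand covers 5.69% of its exonic bases and was listed at 0 in these libraries.

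Set beside each other, the light chains that pair with SLC3A2 (SLC7A5, SLC7A6, SLC7A7, SLC7A8, SLC7A10 and SLC7A11) differed in makeup between RD-ES groups by value, with no test run on the shares. SLC7A11 made up 12.01% and 11.4% of their summed FPKM in RD-ES controls and 29.4% and 19.8% in RD-ES eKD2 cells. In SK-N-MC its share was 34.3% and 32.9% in controls and 34.4% and 28.3% in eKD2 cells. The share of SLC7A5 was 46.4% and 49.4% in RD-ES controls and 47.5% and 50.5% in RD-ES eKD2 cells. For each FPKM of light chain there were 1.79 and 1.80 FPKM of SLC3A2 in RD-ES controls, and 2.55 and 2.11 in eKD2 cells. In SK-N-MC this ratio was 2.10 and 2.18 in controls and 1.89 and 2.08 in eKD2 cells. The RD-ES eKD2 libraries were above both controls of their line in this ratio, and the SK-N-MC eKD2 libraries below theirs.

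**Figure D3:**
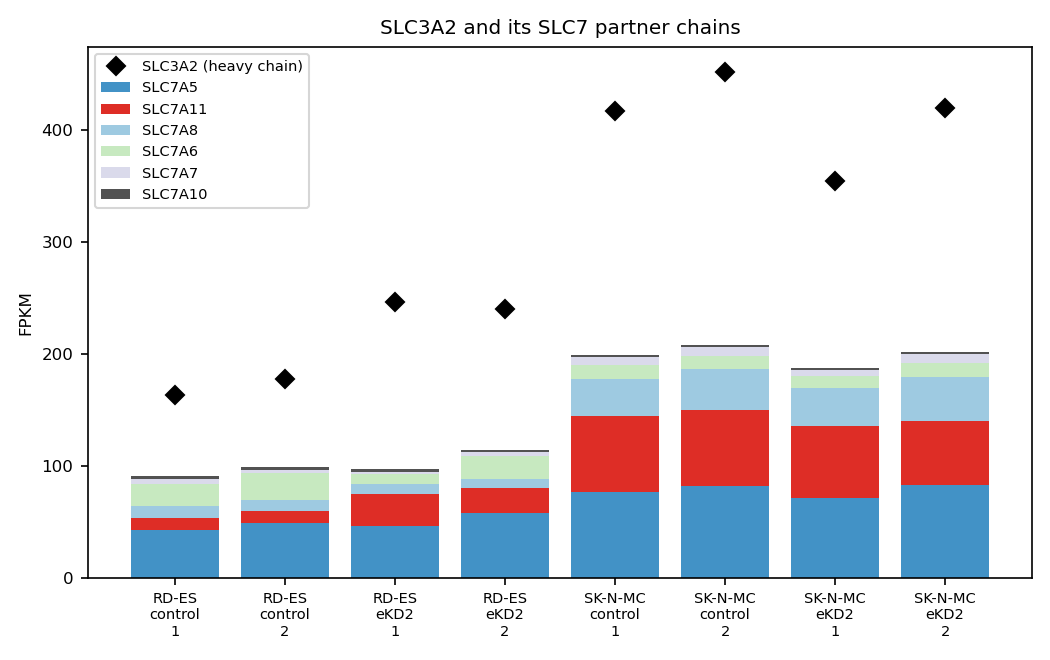
FPKM of SLC3A2 (black diamonds) and, stacked, of its 6 SLC7 light chains in each of the 8 libraries (vertical axis from 0). SLC7A11 (red) filled 11.4% to 12.01% of the stack in RD-ES controls, 19.8% to 29.4% in RD-ES eKD2 cells and 28.3% to 34.4% in SK-N-MC.

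Of the cationic amino acid carriers, SLC7A1 (CAT1; chromosome 13, 30083551 to 30169825, minus strand) was at 19.4 and 21.8 FPKM in RD-ES controls and at 27.9 and 29.5 FPKM in eKD2 cells. The groups did not overlap, and the log2 difference was 0.46 ± 0.078 (unadjusted p = 0.0010, adjusted p = 0.13). In SK-N-MC all 4 libraries lay between 59.4 and 62.0 FPKM, the tightest of the 10 genes there, with a difference of 0.04 and a 95% interval from -0.15 to 0.23. SLC7A3 (CAT3; chromosome X, 70145429 to 70150975, minus strand) was the 1 transporter whose difference was more positive in SK-N-MC than in RD-ES. Its SK-N-MC controls were at 14.05 and 14.4 FPKM and its eKD2 libraries there at 17.5 and 21.2 FPKM (0.42 ± 0.14, unadjusted p = 0.026, adjusted p = 0.31). Its RD-ES controls, at 9.24 and 9.97 FPKM, stood against eKD2 values of 10.5 and 13.4 FPKM (0.28, adjusted p = 0.49), a difference of 0.12 without RD-ES eKD2 replicate 2 and 0.45 without replicate 1. Neither group pair overlapped. Per FPKM of SLC7A3 there were 2.10 and 2.19 FPKM of SLC7A1 in RD-ES controls, 2.65 and 2.19 in RD-ES eKD2 cells, 4.23 and 4.15 in SK-N-MC controls, and 3.44 and 2.92 in SK-N-MC eKD2 cells.

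The neutral exchangers SLC1A4 and SLC1A5 differed from each other in RD-ES by value. SLC1A4 (ASCT1; chromosome 2, 65215611 to 65250999, plus strand) was at 10.6 and 10.9 FPKM in controls and at 12.7 and 14.03 FPKM in eKD2 cells (0.29 ± 0.090, unadjusted p = 0.017, adjusted p = 0.29). In SK-N-MC it was at 33.3 and 37.3 FPKM in controls and at 28.9 and 30.1 FPKM in eKD2 cells (-0.25 ± 0.090, unadjusted p = 0.032, adjusted p = 0.34). The eKD2 libraries were thus all above the controls in RD-ES and all below them in SK-N-MC. SLC1A5 (ASCT2; chromosome 19, 47278140 to 47291851, minus strand) overlapped between groups in both lines. It was at 78.9 and 93.8 FPKM against 70.5 and 94.2 FPKM in RD-ES (-0.08, interval -0.48 to 0.32), and at 237 and 257 FPKM against 216 and 253 FPKM in SK-N-MC (-0.08, interval -0.48 to 0.32). The intervals of SLC1A5 were the widest of the 10 genes in both lines, and its sign turned in both lines when single libraries were left out. Other genes cover 23.8% of its exonic bases, mainly a lncRNA on the other strand at a mean of 0.443 FPKM.

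The sodium-coupled carriers SLC38A1 and SLC38A2 lie side by side on chromosome 12 (46576846 to 46663800 and 46751971 to 46766556, both on the minus strand). SLC38A2, the form that amino acid shortage is known to induce, was at 191 and 171 FPKM in RD-ES controls and at 238 and 220 FPKM in eKD2 cells (0.34 ± 0.075, unadjusted p = 0.0041, adjusted p = 0.20). In SK-N-MC it was at 289 and 285 FPKM in controls and at 242 and 233 FPKM in eKD2 cells (-0.27 ± 0.075, unadjusted p = 0.011, adjusted p = 0.24). No library overlapped between groups in either line, and neither difference passed the adjusted test. SLC38A1 was at 73.4 and 72.9 FPKM in RD-ES controls and at 98.7 and 80.4 FPKM in eKD2 cells. Its difference of 0.28 (unadjusted p = 0.037, adjusted p = 0.37) rested largely on RD-ES eKD2 replicate 1, without which it was 0.13. In SK-N-MC, SLC38A1 was at 77.5 and 74.99 FPKM in controls and at 70.7 and 65.7 FPKM in eKD2 cells (-0.16, adjusted p = 0.58). The ratio of SLC38A2 to SLC38A1 was 2.35 to 2.73 in the 4 RD-ES libraries and 3.42 to 3.80 in the 4 SK-N-MC libraries, without a split between control and eKD2 in RD-ES.

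The glycine carrier SLC6A9 (chromosome 1, 44457172 to 44497139, minus strand) had the largest difference in RD-ES after SLC7A11. It was at 5.41 and 7.38 FPKM in controls and at 11.7 and 12.5 FPKM in eKD2 cells, a ratio of means of 1.89. The log2 difference of 0.84 ± 0.16 did not pass the adjusted test (unadjusted p = 0.0018, adjusted p = 0.16), and the spread between the 2 controls was wider than that between the eKD2 libraries. In SK-N-MC it was at 32.7 and 35.2 FPKM in controls and at 26.2 and 32.0 FPKM in eKD2 cells, all eKD2 values below the controls (-0.22 ± 0.16, adjusted p = 0.62). That difference was -0.08 without SK-N-MC eKD2 replicate 1 and -0.36 without replicate 2. CCDC24 on the other strand, at a mean of 3.59 FPKM, covers 7.87% of its exonic bases. For SLC7A11, SLC1A5, SLC38A2 and SLC6A9 the interval given in the expression table was wider than the gene in the annotation by more than a few bases. The table's entry of these genes may thus hold more than the gene model cited here.

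Whether the eKD2 difference itself differed between the lines was tested as an interaction term, SK-N-MC minus RD-ES. None of the 10 passed an adjusted p of 0.05 by limma, against 0.244% of all genes tested, while at an unadjusted p under 0.05, 7 of the 10 were lower and 0 higher, against 9.16% and 4.38% of all genes. SLC7A11 had the largest term at -1.30 ± 0.17 (unadjusted p = 2.7e-04, adjusted p = 0.077). Its adjusted p was 0.12 with median scaling, quantile normalization or no trend, and 0.25 with a replicate block. With 1 library left out, the term of SLC7A11 ran from -1.46 to -1.13. SLC6A9 followed at -1.06 ± 0.22 (adjusted p = 0.19), SLC3A2 at -0.68 ± 0.14 (0.17), SLC38A2 at -0.61 ± 0.11 (0.14), SLC1A4 at -0.54 ± 0.13 (0.21), SLC38A1 at -0.44 ± 0.15 (0.30) and SLC7A1 at -0.42 ± 0.11 (0.23). SLC7A5, SLC7A3 and SLC1A5 had intervals that held 0. For 5 of the 10, SLC7A11, SLC1A4, SLC38A1, SLC38A2 and SLC6A9, all eKD2 libraries were above the controls in RD-ES and below them in SK-N-MC, a pattern of 6.69% of all genes.

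**Figure D4:**
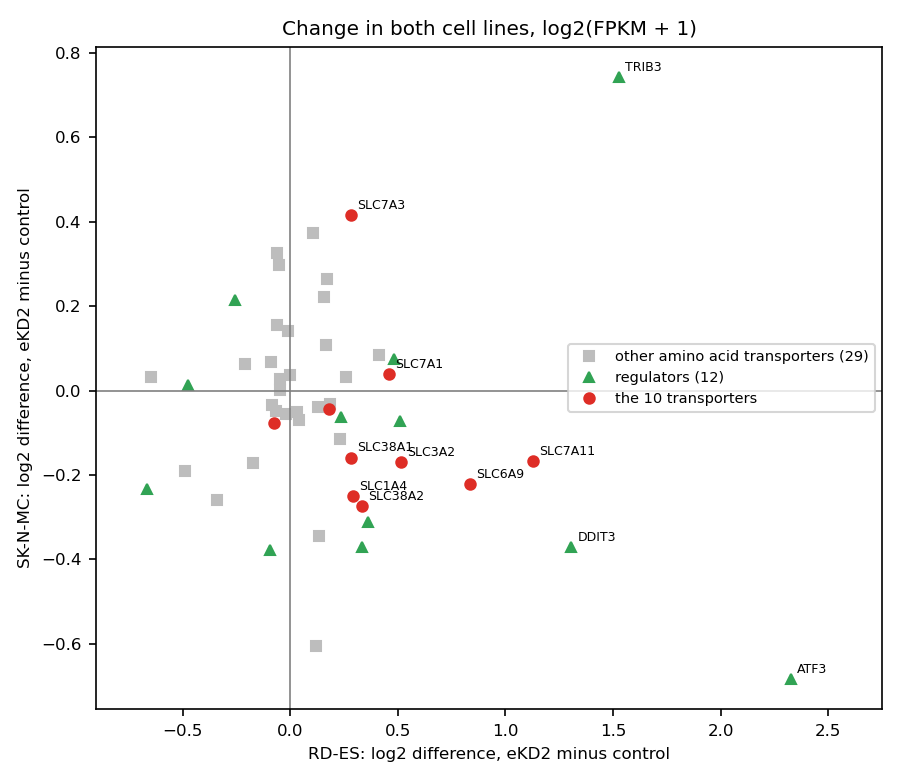
Difference in log2(FPKM + 1) between eKD2 and control in RD-ES (horizontal) and in SK-N-MC (vertical) for the 10 transporters (red), 29 other amino acid transporters (grey) and 12 regulators (green). SLC7A11 lies at 1.13 and -0.17, ATF3 at 2.33 and -0.68, and TRIB3 at 1.53 and 0.74.

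Comparing the control cells gives the level of each transporter in the lines without eKD2. SK-N-MC controls were higher for 9 of the 10 at an adjusted p under 0.05, against 31.4% of all genes tested, and both SK-N-MC controls lay above both RD-ES controls for all 10, against 43.2% of all genes. SLC7A11 was 6.18-fold higher (log2 difference 2.52 ± 0.12, adjusted p = 3.0e-05) and SLC6A9 5.30-fold (2.25 ± 0.16, adjusted p = 1.1e-04). SLC1A4 (3.29-fold), SLC7A1 (2.89-fold), SLC1A5 (2.86-fold) and SLC3A2 (2.55-fold) formed a middle range. The leucine importer SLC7A5 was 1.74-fold higher (adjusted p = 0.0039) and SLC38A2 1.58-fold (adjusted p = 6.5e-04). SLC7A3 was 1.48-fold higher (adjusted p = 0.021), and that call was lost without any 1 of the 4 control libraries, with adjusted p from 0.063 to 0.0998. SLC38A1, at 73.1 and 76.3 FPKM, had a log2 difference of 0.06 with a 95% interval from -0.20 to 0.32, and median scaling turned its sign. That scaling moved the median of all genes from 0.06 to -0.04 in this comparison, and the 9 calls remained under it.

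In eKD2 cells the ratio of SK-N-MC to RD-ES was smaller than in controls for 9 of the 10, as values. The interaction term above, which uses mean log2(FPKM + 1), bears on the same contrast, and the ratios of mean FPKM were not tested. For SLC7A11 it was 6.18 in controls and 2.38 in eKD2 cells, for SLC6A9 5.30 and 2.41, for SLC3A2 2.55 and 1.59, and for SLC38A2 1.58 and 1.04. For SLC1A5 it was 2.86 and 2.85, and for SLC7A3, the exception, 1.48 and 1.62. SLC38A1, level between the lines in controls at 1.04, was at 0.762 in eKD2 cells.

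A wider list of 52 other amino acid transporters, of the plasma membrane, the lysosome and the mitochondrion, had 29 genes above the filter. None of the 29 passed an adjusted p of 0.05 by limma in either line. In RD-ES 14 were higher and 15 lower by sign, with 0 and 1 at an unadjusted p under 0.05, against 8.49% and 3.79% of all genes. The median log2 difference was -0.0077, against 0.03 over all genes. In SK-N-MC 16 were higher and 13 lower, with 2 in each direction at an unadjusted p under 0.05. Over all genes these shares were 5.71% higher and 7.29% lower. The median in SK-N-MC was 0.03, against -0.0049 over all genes. The smallest p in RD-ES belonged to SLC38A5, a glutamine and histidine carrier, at 109 and 118 FPKM in controls and 72.9 and 89.0 FPKM in eKD2 cells (-0.49, unadjusted p = 0.017, adjusted p = 0.29). SLC7A2, a cationic carrier of the same subfamily as SLC7A1, was at 14.4 and 14.3 against 15.9 and 16.4 FPKM in RD-ES (0.16, adjusted p = 0.42) and at 55.0 and 54.0 against 65.6 and 62.0 FPKM in SK-N-MC (0.22, adjusted p = 0.27). The neutral carrier SLC43A1 had the next smallest p in RD-ES (0.26, adjusted p = 0.46). The taurine carrier SLC6A6 (-0.61, adjusted p = 0.36) and the lysosomal carrier SLC38A7 (-0.35, adjusted p = 0.37) followed SLC7A2 in SK-N-MC.

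Of 12 regulators of these transporters, 3 rose in RD-ES eKD2 cells at an adjusted p under 0.05, and at an unadjusted p under 0.05, 7 were higher and 2 lower, with a median log2 difference of 0.35 over the 12. Over all genes tested these shares were 0.264%, 8.49% and 3.79%, and the median was 0.03. ATF3, a stress-induced factor, was at 11.1 and 8.82 FPKM in controls and at 52.3 and 55.1 FPKM in eKD2 cells (2.33 ± 0.11, adjusted p = 0.0012). DDIT3 (CHOP), a target of ATF4, was at 40.4 and 43.1 FPKM against 99.2 and 110 FPKM (1.31 ± 0.079, adjusted p = 0.0032), and TRIB3, a pseudokinase induced by ATF4 and DDIT3, at 6.89 and 6.02 FPKM against 19.2 and 21.8 FPKM (1.53 ± 0.0999, adjusted p = 0.0040). None of these 3 kept an adjusted p under 0.05 with RD-ES fitted alone (0.16, 0.17 and 0.32 for ATF3, DDIT3 and TRIB3), and with a replicate block ATF3 (0.060) and TRIB3 (0.11) lost theirs. ATF4 itself was at 192 and 201 FPKM against 232 and 232 FPKM (0.24, adjusted p = 0.24) and NFE2L2 at 52.0 and 53.8 FPKM against 71.9 and 62.4 FPKM (0.33, adjusted p = 0.24). In SK-N-MC none of the 12 passed by limma, against 0.323% of all genes. There, at an unadjusted p under 0.05, TRIB3 was higher (0.74, adjusted p = 0.068) and 4 were lower, among them ATF3 (-0.68, adjusted p = 0.11), DDIT3 (-0.37, adjusted p = 0.17) and NFE2L2 (-0.37, adjusted p = 0.20), against 5.71% of all genes higher and 7.29% lower. The interaction term passed for 2 of the 12, ATF3 (-3.01, adjusted p = 0.0017) and DDIT3 (-1.68, adjusted p = 0.0048), against 0.244% of all genes.

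The genes with the pattern most like SLC7A11 over the 8 libraries, each line centred on its own mean, among 8776 other genes averaging 10 FPKM or more, were CEP120 (Pearson's r = 0.993), MTHFD2 (0.983) and TMEM192 (0.981). MTHFD2, a mitochondrial folate enzyme that uses serine-derived carbon, was at a mean of 141 FPKM in RD-ES controls and 193 FPKM in eKD2 cells (0.45, adjusted p = 0.033), and at 352 and 329 FPKM in SK-N-MC (-0.10, adjusted p = 0.48). CEP120, a centriole protein (0.31, adjusted p = 0.23), and TMEM192, a lysosomal membrane protein (0.33, adjusted p = 0.22), did not pass the test in RD-ES. The 8 points of each correlation share their libraries and the contrast of eKD2 with control in RD-ES, and the r is a description of likeness only. MTHFD2 was picked by its likeness to a gene called in RD-ES, so its p-value there is not separate evidence of a rise.

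**Figure D5:**
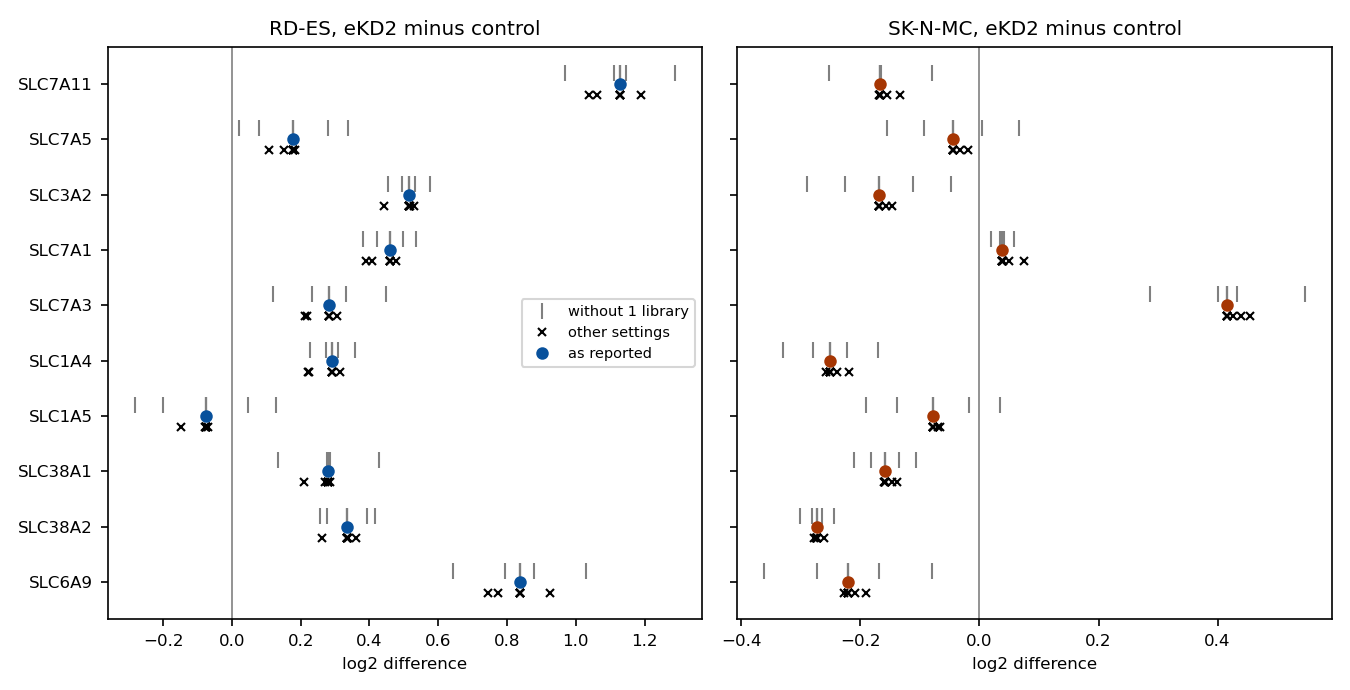
Difference in log2 FPKM between eKD2 and control for each transporter in RD-ES (left) and SK-N-MC (right) as reported (points), under other processing settings (crosses) and with 1 library left out at a time (bars). In RD-ES, SLC7A11 runs from 0.97 to 1.29 and SLC1A5 from -0.28 to 0.13, across 0.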

How the data were processed

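RNA from 8 libraries was measured by RNA sequencing. The authors' tools, per the submitters' processing notes, were FastQC, STAR, Cuffnorm and DESeq2, on build hg19 (GRCh37), with no versions given in the sources used here. The deposited values are FPKM per gene, made by the authors with Cuffnorm, which scales libraries to each other. 0 columns of values belonged to no sample. Since FPKM are not counts, the count test was replaced by limma 3.58.1 (R 4.3.3) with a trend and all 4 groups in 1 fit, on log2(FPKM + 1) of the 15175 genes averaging 1 FPKM or more, adjusted by Benjamini-Hochberg over all of them, with a threshold of 0.05. A pseudocount of 1 understates differences of low genes. The test was run on simulated data with independent noise and large changes added to some genes, in RD-ES eKD2 only. That run does not bear on smaller changes, or on calls that were lost in other settings. The 10 members and the lists were chosen with earlier results of these data known. The genes named were the 10, LOXHD1, listed genes past the adjusted threshold, the 3 other transporters with the smallest p per line, ATF4, DDIT3, NFE2L2 and the 3 genes most like each called member. Other genes named were chosen after their values were seen. Intervals are 95% intervals of the fit. Depth is a rough estimate from whole-read steps of genes with 1 transcript (51.8% to 66.9% of low values fell within 5% of 1 to 4 reads) and includes Cuffnorm's scaling. Gene positions and exon overlaps were taken from GENCODE v44 mapped to GRCh37. Replicates of a group were not identical (Pearson's r of log2 values 0.937 to 0.945 across genes). Alternatives were a pseudocount of 0.1, no filter, median scaling, quantile normalization, each line alone, no trend, a replicate block and leaving out each library.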

Additional observations from a re-analysis of the deposited data

Results flagged for a closer look

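For 5 of the 10 transporters, both eKD2 libraries lay above both controls in RD-ES and below both controls in SK-N-MC, which was also so for 6.69% of all genes tested. The difference between the lines was tested as an interaction term (SK-N-MC minus RD-ES, log2, limma), and none of the 5 passed after adjustment. The term was -1.30 for SLC7A11 (adjusted p = 0.077), -1.06 for SLC6A9 (0.19), -0.61 for SLC38A2 (0.14), -0.54 for SLC1A4 (0.21) and -0.44 for SLC38A1 (0.30). With 2 libraries a group, outliers within a group were not tested.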

How the results depend on the processing

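The number of the 10 transporters past an adjusted p of 0.05 in RD-ES, 1 as reported (SLC7A11), was 1 with a pseudocount of 0.1 FPKM and 0 with no filter, median scaling, quantile normalization, each line alone, no trend or a replicate block, and ranged from 0 to 1 when 1 library was left out. The number for the difference between the lines ranged from 0 to 1, and that between control cells from 8 to 9, when 1 library was left out. The count of called regulators, 3 of 12 over both lines, became 0 with each line alone and 1 with the replicate block. The count of called genes among the other transporters on the list was 0 in every setting. The replicate numbers were not shown to pair the samples (same-numbered libraries deviated from their group means with r = 0.056 for RD-ES and r = 0.027 for SK-N-MC), and the replicate block lowered the calls over all genes from 52 to 11 for RD-ES, and for SK-N-MC from 49 to 5. Signs turned, all far from the threshold, for SLC7A5 in SK-N-MC (-0.16 to 0.067 when 1 library was left out), SLC7A3 in the difference between lines (-0.031 to 0.30), SLC1A5 in RD-ES (-0.28 to 0.13) as well as SK-N-MC (-0.19 to 0.035), and SLC1A5 in the difference between lines (-0.21 to 0.21, 0.082 with median scaling and 0.00151 with quantile normalization). They also turned for SLC43A1 in SK-N-MC (-0.10 to 0.16), SLC6A6 in RD-ES (-0.23 to 0.48) and SLC38A1 between control cells with median scaling (-0.087). LOXHD1 in RD-ES had an adjusted p of 0.059 with that line alone. The share of higher genes among those at an unadjusted p under 0.05 in RD-ES was 69.1%, 41.2% with median scaling and 53.7% with quantile normalization. For the difference between lines it was 32.4%, 56.3% and 43.4%. Under median scaling 6 of the 10 were higher in RD-ES at an unadjusted p under 0.05. The cause of these shifts was not tested. With 1 library left out of a group, the lone library was assumed to vary like the other groups. In all, 870 of 910 values by alternative kept their direction and side of the threshold. Many of them belonged to genes far from the threshold, which had little room to change side, so this count says little about the calls. The call of SLC7A11 in RD-ES was lost in most settings. Depth is known only as an estimate.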
